A study of Bombyx mori with 6 samples.

Results

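The most abundant transcripts of wild-type testis were taken as the genes at the head of the ranking by level in the silkworm Bombyx mori. All genes were ranked by the mean RPKM of the 3 wild-type libraries, a read count divided by gene length and by library size. The first 200 were taken, and 19 of them were set aside by symbol: 12 ribosomal protein genes, 3 tubulin genes, 2 heat shock genes, the cuticular protein gene CPH43 and the kinase gene TSSK. This left 181 of 15884 genes. The members were thus chosen by their measured WT level, so their WT values describe the choice and support nothing further. The comparison of strains shares those WT values, and its counts are read with that in mind.

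Testes came from larvae on day 5 of the fifth instar. One group of 3 libraries was from the strain 898WB, labelled wild type and called WT here. The other 3 were from the genetic male sterile line, labelled mutant type and called GMS here. The labels name no mutated gene, treatment or allele, and do not say whether a library came from 1 animal or a pool. The p-values therefore measure the spread between these libraries only. In bulk testis RNA, fewer cells of a type and less RNA per cell cannot be told apart.

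As background, the testis of a late silkworm larva holds cysts of male germ cells that divide, enter meiosis and begin to elongate into sperm. Cells of this kind keep large pools of mRNA for building the sperm tail and of proteins that bind, store and translate mRNA. A small set of housekeeping genes, for translation factors, chaperones, glycolytic enzymes and carriers of ATP, is abundant in most animal cells.

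Counted reads per library ran from 19627477 to 28358501, and the lowest count of any member in any library was 3731 reads. WT replicate 3 stood apart from the other WT libraries, and results that rest on it are given with and without it. Of the testis markers, 3 of 6 tested were higher in GMS and 2 lower. Dmc1 (log2 change 0.93), Aubergine (0.23) and Vlg (0.17) rose, Tub4 (-0.40) and TSSK (-0.29) fell, and Ago3 did not pass. Their sum was 32282 to 36924 CPM in WT and 26558 to 27242 CPM in GMS. Most of this sum was the tubulin gene Tub4, with 3.17% of counted reads in WT and 2.57% in GMS. The sum therefore does not describe the other testis markers. CPM is the read count scaled to a common library size by TMM, a trimmed mean of log ratios between libraries. Fat body and haemolymph markers summed to 376 to 502 CPM in WT and 196 to 210.1 in GMS, with 0 of 7 higher and 6 lower. The sums for haemocyte markers were 88.9 to 109 and 121 to 135 CPM (2 of 4 higher, 2 lower), and for muscle markers 41.2 to 50.2 and 48.1 to 51.6 CPM (1 of 5 higher, 3 lower). Cuticular protein genes, as markers of epidermis, summed to 1273 to 1498 and 1486 to 1562 CPM, with 26 of 73 higher and 21 lower and 34 of 201 without a read. A large part of this sum was CPH43, with 0.105% of counted reads in WT and 0.0791% in GMS, which fell (log2 change -0.51). The sum therefore does not describe the other cuticular genes. SPARC and Kal-1, for the sheath, summed to 344 to 361 and 427 to 449.7 CPM, with 1 higher and 1 lower. No marker outside the epidermis list was at 0 in all libraries. None of these marker genes was a member, in part through the rule: Tub4, CPH43 and TSSK had WT ranks of 2, 17 and 34 and were set aside by symbol. The part of other cell types in the results was not tested.

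The 181 members took a large share of all counted reads in WT and a smaller one in GMS. Their share of counted reads was 28.1%, 28.2% and 26.2% in the 3 WT libraries and 24.3%, 24.2% and 24.1% in the 3 GMS libraries. The libraries of the strains did not overlap, and WT replicate 3 lay closest to GMS. The means were 27.5% ± 1.11 in WT and 24.2% ± 0.102 in GMS (SD, n = 3), and the WT mean without replicate 3 was 28.1%. The difference was -3.28 percentage points, given without a test because the WT levels chose the members. As a share of summed RPKM, which divides each gene by its length, the values were 34.3% ± 1.14 in WT and 30.6% ± 0.108 in GMS (SD, n = 3). The 19 genes set aside by symbol took a further 5.82% ± 0.378 in WT and 5.08% ± 0.00893 in GMS (SD, n = 3) of counted reads. The next 200 genes in the WT ranking took 10.2% ± 0.0949 in WT and 9.98% ± 0.0341 in GMS (SD, n = 3), a difference of -0.235 percentage points.

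**Figure D1:**
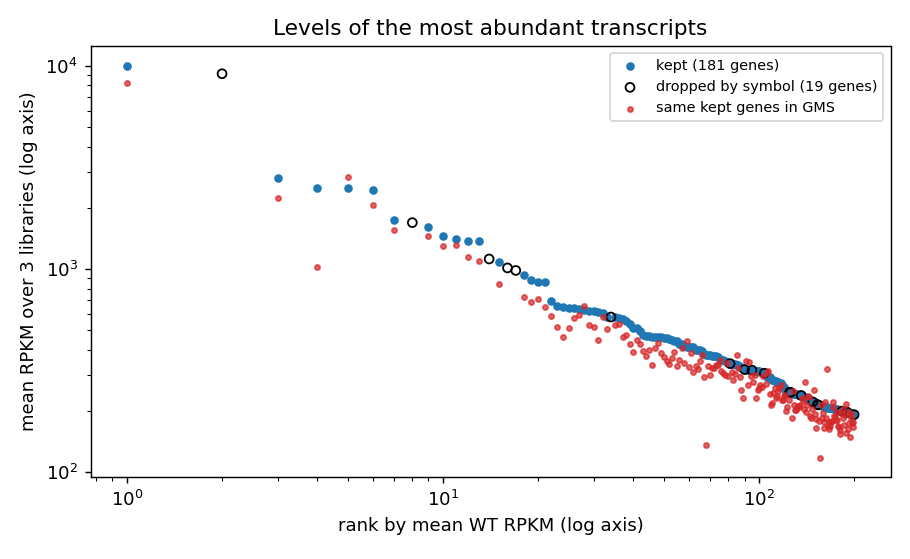
Mean RPKM over 3 libraries (log axis) against rank by mean WT RPKM (log axis). Filled blue points are the 181 members in WT, red points the same genes in GMS and open circles the 19 genes set aside by symbol; the first member stands at 10019.6 RPKM and the next stands at 2806 RPKM, and most red points lie just under the blue ones.

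The level of expression was very unevenly spread among the members. The first of them, LOC100101153, took 2.84% of all counted reads in WT and 2.40% in GMS. The first 10 members together took 7.23% ± 0.286 in WT and 6.29% ± 0.0503 in GMS (SD, n = 3). Levels ran from 10019.6 RPKM to 192 RPKM in WT. At the edge of the choice, the last 3 genes of the first 200 had 192 RPKM (LOC101736556), 192 RPKM (LOC101742245) and 192 RPKM (RpL9, a ribosomal protein gene that was set aside). The first 3 outside had 192 RPKM (RpS18), 191 RPKM (LOC101743082) and 190.5 RPKM (GeneID101738166). No gap in level marked the edge.

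The reference gene table gave a name to few of the members. 20 had a symbol of their own, 148 only a LOC number, of which 6 had a synonym, and 13 had no entry and are written with their GeneID. By biotype, 152 members (84.0%) were protein coding, beside 83.8% of the 12029 genes tested. Long non-coding RNAs (lncRNAs) made up 15 members (8.29%), beside 3.28% of genes tested. The members had a median length of 1195 bases (range 337 to 7594), beside 1938 bases over all genes tested. The RPKM of the ranking divides by this length.

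Among the members, the head of the ranking was held by genes known by number. The full ranking also held named genes that were set aside by symbol, with Tub4 at rank 2 and 9132 RPKM in WT. LOC100101153, which is protein coding, had 10333, 10585 and 9141 RPKM in WT and 8269, 8110.0 and 8181 RPKM in GMS. All 3 WT libraries were above all 3 GMS libraries (log2 change -0.35, standard error 0.05, edgeR adjusted p = 0.00127). LOC101742895, also protein coding, had 2957, 2862 and 2598 RPKM in WT and 2319, 2171 and 2226 RPKM in GMS. Its groups did not overlap either (log2 change -0.38, standard error 0.05, edgeR adjusted p = 7.34e-04). The lncRNA LOC101739886 had 2335, 2569.8 and 2574 RPKM in WT and 2823, 2973 and 2689 RPKM in GMS. The GMS libraries were the higher ones here, but the change did not pass the threshold of an adjusted p under 0.05 (log2 change 0.12, standard error 0.06, edgeR adjusted p = 0.170). Without WT replicate 3 it did (0.12, adjusted p = 0.0290).

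The others among the 15 most abundant members had lower levels, and most fell in GMS by a small amount. GeneID105842956 had 2445 ± 236 RPKM in WT and 2063 ± 30.2 RPKM in GMS (SD, n = 3), LOC692779 1737 ± 121 RPKM in WT and 1557 ± 51.6 RPKM in GMS, and the lncRNA LOC101741279 1609 ± 157 RPKM in WT and 1449.7 ± 56.6 RPKM in GMS. The RPKM values of the last pair overlapped between strains. Their calls depended on which libraries entered: with each library left out in turn, the edgeR adjusted p was 2.04e-07 to 0.0568 for LOC692779 and 3.70e-08 to 0.126 for LOC101741279. LOC101746614 had 1459 ± 193 RPKM in WT and 1299 ± 78.3 RPKM in GMS and did not pass (log2 change -0.22, standard error 0.09, edgeR adjusted p = 0.0818; without WT replicate 3, adjusted p = 3.51e-07). LOC101739749 had 1404 ± 38.7 RPKM in WT and 1306 ± 35.8 RPKM in GMS and passed with a log2 change of -0.16, with an adjusted p of 1.26e-05 to 0.0927 when single libraries were left out. LOC101743651 (-0.31), LOC101739849 (-0.38), LOC101745545 (-0.43), the lncRNA LOC101746522 (-0.42) and GeneID110385891 (-0.34) also fell on the log2 scale, with no overlap of libraries.

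Between strains, the members were mostly a little lower in GMS. In the edgeR quasi-likelihood test over 12029 genes, with Benjamini-Hochberg adjustment over all of them, 135 members fell, 2 rose and 44 did not pass. Over all genes tested, 18.6% were lower in GMS and 17.6% higher, beside 74.6% and 1.10% of the members. Genes chosen for a high WT level share that level with the contrast, so nothing is read from this balance. The median log2 change was -0.26 over the members, with quartiles of -0.35 and -0.17, and 0.05 over all genes tested.

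Changes among the members were small as well as many. Their median change was a 1.20-fold lower level in GMS, and 178 of 181 lay within 1.5-fold (98.3%, beside 78.0% of genes tested). Past the threshold and at least 2-fold were 2 members, beside 10.3% of all genes tested. Other abundant genes also changed little. In the ranking over all 6 libraries, with no names set aside, 3 of the first 200 genes changed at least 2-fold, called or not. At rank 201 to 400 it was 1 of 200 genes, and at rank 401 to 800 it was 5 of 400. By RPKM, without any model, all 3 GMS libraries were below all 3 WT libraries for 117 members and above them for 6. The same held for 19.8% and 33.0% of all genes tested. The remaining 58 members overlapped. Without WT replicate 3, 165 members fell and 3 rose, beside 29.0% lower and 29.0% higher over all genes, and all 135 members that fell in the full set were among those that fell.

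**Figure D2:**
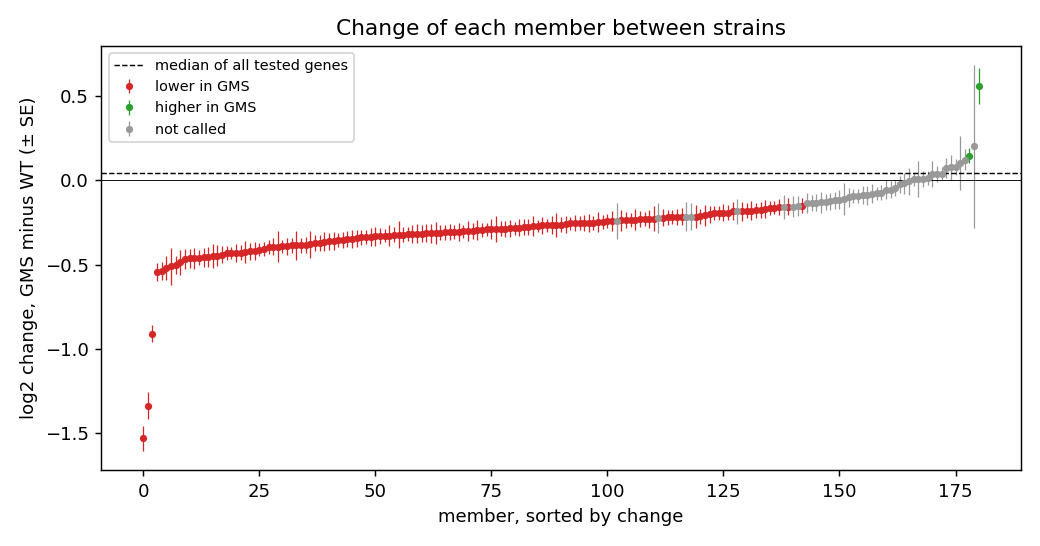
Log2 change (GMS against WT) with its standard error for each of the 181 members, sorted by size, with colour for the call (higher, lower or not called) and lines for 0 and for the median over all genes tested. All but 4 members lie between -0.55 and 0.20; LOC101735509, LOC101741564 and LOC778502 lie below this run and the lncRNA LOC105842204 above it.

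3 members fell much further than the others. LOC101735509 had 405, 398 and 335 RPKM in WT and 139, 142 and 128 RPKM in GMS, and every GMS library was under every WT library. This was the largest fall among the members (log2 change -1.53, standard error 0.07, edgeR adjusted p = 7.34e-06), and the gene went from rank 68 in WT to rank 328 in GMS. LOC101741564, the third most abundant member, had 2679.5, 2661 and 2139.8 RPKM in WT and 1047, 1037 and 992 RPKM in GMS. Its WT and GMS libraries also stood far apart (log2 change -1.34, standard error 0.08, edgeR adjusted p = 1.86e-05). LOC778502 had 217, 226 and 196 RPKM in WT and 117, 115 and 122 RPKM in GMS, again without overlap (log2 change -0.91, standard error 0.05, edgeR adjusted p = 1.45e-05), and went from rank 156 to 383, the lowest GMS rank of any member. All 3 are protein coding, and the table names no product for them. The next falls were those of LOC101737593 (-0.55), LOC101737712 (-0.54), aif (-0.52), LOC101739718 (-0.51) and LOC101740191 (-0.50), each with no overlap.

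Rises were rare. The lncRNA LOC105842204 had 184, 199.7 and 242 RPKM in WT and 324, 321 and 318 RPKM in GMS. All GMS libraries were higher, and the WT libraries were spread more widely than the GMS ones (log2 change 0.56, standard error 0.11, edgeR adjusted p = 0.00565). LOC778526, a protein-coding gene, had 229, 221 and 214 RPKM in WT and 263, 254 and 249 RPKM in GMS. Its libraries differed little (log2 change 0.15, standard error 0.04, edgeR adjusted p = 0.0328), and the adjusted p was 0.0460 to 0.134 with each library left out in turn, 0.211 with DESeq2, 0.261 with upper-quartile scaling and 0.0773 with the replicate number as a block.

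The lncRNA members mostly fell, though their share of summed RPKM was about the same in both strains. Of the 15, 10 fell, 1 rose and 4 did not pass, with a median log2 change of -0.21. Over all 394 lncRNAs tested, 92 were lower and 67 higher, with a median of 0.02. The 15 members took 2.19%, 2.19% and 2.15% of counted reads in the WT libraries and 2.11%, 2.13% and 2.097% in the GMS libraries, without overlap. Of summed RPKM they took 3.39%, 3.43% and 3.48% in WT and 3.44%, 3.50% and 3.39% in GMS, with overlap. The most abundant of the 15, LOC101739886, weighs heavily in this share. It had 2493 RPKM in WT and 2828 RPKM in GMS and was not called. In all, 3 of the 15 had a log2 change above 0. The 152 protein-coding members had a median of -0.26, with 113 lower, 1 higher and 38 not called. The library kit, as named in the labels, does not mark strand, so reads of an lncRNA and of a gene on the other strand cannot be told apart.

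Some members are neighbours in the genome. Of the 20 named and 148 LOC members, 168 could be placed in the gene order of the RefSeq assembly ASM3026992v2 among 13030 counted genes. 28 of them lay in 11 runs of adjacent members. The longest run held 5 genes, LOC101740649, LOC105842204, LOC101739977, LOC101739886 and LOC101739749, of which the middle 3 are lncRNAs. Along this run the log2 changes were -0.13 (not called), 0.56 (higher), -0.09 (not called), 0.12 (not called) and -0.16 (lower). In the full set the gene that rose most thus lay in a run where no other gene was called higher. Without WT replicate 3, LOC101739886 was called higher too (edgeR adjusted p = 0.0290), and LOC101740649, LOC101739977 and LOC101739749 were called lower. In the run of LOC101744211, LOC101744307 and LOC101744397 no member passed. In the other pair of 3-gene runs, LOC101745488, LOC101745729 and LOC101745876, and LOC101741175, LOC101741456 and LOC101741319, all members fell. Only the order is stated, since the build behind the counts may differ.

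The members with a symbol fall into a few roles, and none of the 20 rose. 10 fell and 10 did not pass, against 17 and 3 when WT replicate 3 was left out. The counts given below for whole role lists stand beside the shares over all genes tested, 18.6% lower and 17.6% higher, or 29.0% each without WT replicate 3. Several named members bind RNA or act in translation. Ybp, a Y-box protein of a family that binds and stores mRNA, had 733, 729 and 620.1 RPKM in WT and 597, 584 and 583 RPKM in GMS. It fell without overlap (log2 change -0.30, standard error 0.06, edgeR adjusted p = 0.00623). EF1a, the elongation factor that brings aminoacyl-tRNA to the ribosome, had 593, 617 and 523 RPKM in WT and 541, 514 and 532 RPKM in GMS. WT replicate 3 lay inside the GMS range, and the call (log2 change -0.18, standard error 0.05, edgeR adjusted p = 0.0334) was held when that library was left out and lost when any other was, with an adjusted p of 3.00e-07 to 0.116 over the 6 omissions.

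Other members that bind RNA or act in translation did not pass. Pabp, the poly(A)-binding protein, had 301, 297 and 285 RPKM in WT and 324, 312 and 308 RPKM in GMS. GMS libraries were all slightly higher (log2 change 0.04, standard error 0.04, edgeR adjusted p = 0.459), and the sign turned to -0.02 without WT replicate 3. Values for tef2, the elongation factor of translocation, were 213 ± 18.3 RPKM in WT and 213 ± 7.18 RPKM in GMS (adjusted p = 0.460). Tctp, the translationally controlled tumour protein, had 292, 283 and 250.3 RPKM in WT and 272, 263 and 274 RPKM in GMS (adjusted p = 0.231). VIG, known in Drosophila from the RNA interference complex, had 379 ± 66.0 RPKM in WT and 334 ± 8.52 RPKM in GMS (log2 change -0.24, adjusted p = 0.118). Rsf1, known in Drosophila as a repressor of splicing, had 275 ± 10.2 RPKM in WT and 261 ± 10.4 RPKM in GMS (log2 change -0.13, adjusted p = 0.0633). Leaving out WT replicate 3 brought adjusted p to 4.44e-04, 1.61e-04, 8.58e-09 and 3.73e-04 for tef2, Tctp, VIG and Rsf1. Over the list of 21 translation factors tested, of which 3 are members, 6 fell and 0 rose, beside 18.6% lower and 17.6% higher over all genes. Its median log2 change of -0.05 was nearer 0 than the members' median. Those that fell were EF1a, Eif-4a (-0.18), eIF3c (-0.27), eIF3-S7 (-0.28), the eIF3j gene LOC733089 (-0.36) and Sui1 (-0.51). Without WT replicate 3, 11 fell and 0 rose, beside 29.0% each.

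Among genes of protein folding, Crt, the calcium-binding chaperone calreticulin of the endoplasmic reticulum, had 253, 257 and 219 RPKM in WT and 203, 199.7 and 207 RPKM in GMS. The groups did not overlap (log2 change -0.31, standard error 0.06, edgeR adjusted p = 0.00400). Hsc70-4, the constitutive heat shock cognate, had 634, 654 and 539.5 RPKM in WT and 576, 559 and 601 RPKM in GMS. WT replicate 3 was the lowest of all 6 libraries and the change did not pass (log2 change -0.13, standard error 0.06, edgeR adjusted p = 0.144; without WT replicate 3, -0.25 and adjusted p = 1.99e-06). Cypa, a peptidyl-prolyl isomerase, stood at 228 ± 13.0 RPKM in WT and 239 ± 8.03 RPKM in GMS (log2 change 0.01, adjusted p = 0.907). Of the 9 chaperones and isomerases tested, 4 fell and 0 rose, the others that fell being Ppib (-0.62), Fkbp13 (-0.71) and ERp57 (-0.31). Pdi did not pass (log2 change -0.14, adjusted p = 0.0530; 2.74e-05 without WT replicate 3). Without WT replicate 3, 6 of the list fell and 0 rose, beside 29.0% each over all genes.

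Members for energy supply were few, and those that passed fell. LOC101738591, with the synonym BmANTI2, encodes a carrier that exchanges ADP and ATP across the inner mitochondrial membrane, and it had 297, 284 and 274 RPKM in WT and 221, 221 and 216 RPKM in GMS. Its libraries were separated (log2 change -0.43, standard error 0.04, edgeR adjusted p = 1.98e-04). LOC778467, with the synonym ALD for the glycolytic enzyme aldolase, had 250.0, 262 and 220.2 RPKM in WT and 187, 186 and 182 RPKM in GMS, also separated (log2 change -0.45, standard error 0.06, edgeR adjusted p = 8.20e-04). LOC732956, with the synonym PiC for the mitochondrial phosphate carrier, had 204 ± 16.8 RPKM in WT and 198 ± 2.95 RPKM in GMS and did not pass (adjusted p = 0.184; 5.90e-05 without WT replicate 3). The flavoprotein gene aif, whose protein sits in mitochondria and is known from cell death, had 497, 492 and 401 RPKM in WT and 346, 328 and 334 RPKM in GMS (log2 change -0.52, standard error 0.07, edgeR adjusted p = 0.00127). Of 4 glycolytic genes tested 3 fell: aldolase, the GAPDH gene LOC692786 (-0.30) and the enolase gene LOC100037426 (-0.38). Of 8 genes of respiration and ATP supply 2 fell, BmANTI2 and the arginine kinase AK (-0.36), and 0 rose. Without WT replicate 3 the latter counts were 4 and 1.

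Signalling, cytoskeletal and redox genes were also among the named members. The 14-3-3 proteins bind phosphorylated partners, and both insect genes of the family were members. Ywhae had 495, 521 and 405 RPKM in WT and 387, 399 and 395 RPKM in GMS (log2 change -0.32, standard error 0.08, edgeR adjusted p = 0.0162). The lowest WT value, of replicate 3, was only just above the highest GMS value, and the call was lost without GMS replicate 1, GMS replicate 3 or WT replicate 1 (adjusted p 2.85e-09 to 0.0692 over the 6 omissions). 14-3-3zeta had 243 ± 24.7 RPKM in WT and 250.1 ± 4.12 RPKM in GMS and did not pass (log2 change -0.02, adjusted p = 0.837; 0.00172 without WT replicate 3). The actin gene A4 had 318 ± 34.8 RPKM in WT and 296 ± 10.9 RPKM in GMS (log2 change -0.16, adjusted p = 0.119; 7.95e-06 without WT replicate 3). 4 of 7 actin, profilin, tropomyosin and myosin light chain genes fell and 0 rose (6 and 1 without WT replicate 3), beside 18.6% lower over all genes. Those that fell were no members: A1, A2 and MLC-2, which are also muscle markers, had 0.891, 0.204 and 0.599 RPKM in WT, and the profilin gene PFN had 87.1 RPKM (log2 change -0.20). Jafrac1, a peroxiredoxin in Drosophila, had 278, 295 and 229 RPKM in WT and 232, 224 and 227 RPKM in GMS. Its groups overlapped through WT replicate 3, and the call (log2 change -0.29, standard error 0.08, edgeR adjusted p = 0.0243) was lost when any library other than that one was left out (adjusted p 2.70e-08 to 0.0853 over the 6 omissions). Of 24 redox genes tested 4 fell and 1 rose, or 10 and 2 without WT replicate 3, and the share lower in the full set was near the 18.6% of all genes. Most of this list were glutathione S-transferase (GST) genes, some at low levels, such as GSTd1 with 0.305 RPKM in WT. Jafrac1, GSTs1 (log2 change -0.90), GSTd3 (-0.59) and GSTe5 (-2.24) fell, and GSTu1 (1.22) rose. The counts thus mainly describe GST genes.

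The last named members have other roles or none known from the table. Crabp, of the family of fatty acid and retinoid binding proteins, was the most abundant member with a symbol and had 969, 968 and 856 RPKM in WT and 756, 695 and 721 RPKM in GMS. It fell (log2 change -0.42, standard error 0.05, edgeR adjusted p = 7.61e-04). Ai-b (413 ± 33.2 RPKM in WT and 311 ± 7.88 RPKM in GMS; -0.46), L130 (463 ± 23.8 RPKM in WT and 409 ± 9.21 RPKM in GMS; -0.23) and the cytochrome P450 gene Cyp339a1 (207 ± 3.17 RPKM in WT and 176 ± 1.80 RPKM in GMS; -0.29) fell too, with no overlap. Mod(mdg4), a chromatin protein in Drosophila, had 336, 330.1 and 294 RPKM in WT and 356, 340.3 and 358 RPKM in GMS. All GMS libraries were above all WT libraries, yet the change did not pass (log2 change 0.08, standard error 0.05, edgeR adjusted p = 0.247) and was -0.01 without WT replicate 3. Among LOC members with a synonym, LOC101740600 (Ubi3, a ubiquitin gene) had 574 ± 58.1 RPKM in WT and 536 ± 6.23 RPKM in GMS (adjusted p = 0.0929; 2.69e-06 without WT replicate 3), and 0 of 4 genes of ubiquitin and its conjugating enzymes passed (3 fell and 1 rose without WT replicate 3). LOC101740228 (CecD2, an antimicrobial cecropin) had 209.9 ± 5.31 RPKM in WT and 221 ± 6.52 RPKM in GMS (adjusted p = 0.822). LOC101736846 (RS-TS) fell, from 203 to 166 RPKM (-0.34). No listed histone gene was a member, and of 5 histone and chromatin genes tested 1 rose and 1 fell.

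**Figure D3:**
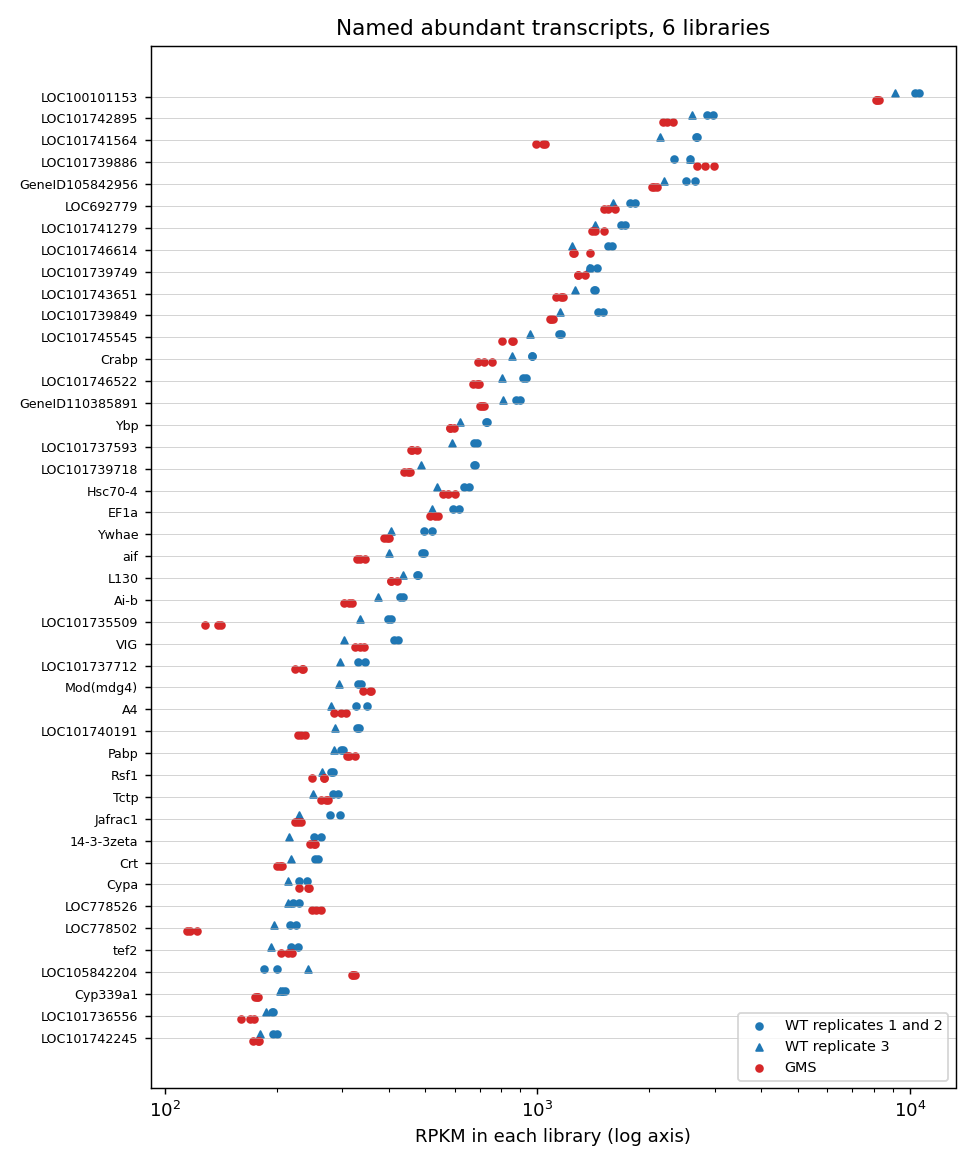
RPKM (log axis) of the members with a symbol, the most abundant members, those that changed most and those at the edge of the ranking, in each of the 6 libraries; blue circles are WT replicates 1 and 2, blue triangles WT replicate 3 and red circles the GMS libraries. For EF1a and Jafrac1 the triangle lies among the red circles, for Hsc70-4, VIG and A4 it lies to their left, and for aif, Ai-b and Crabp the strains are apart.

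Because WT levels chose the members, the same comparison was set beside rankings that treat the strains alike or take GMS alone. With the 200 genes of highest mean RPKM over all 6 libraries, 172 after the same names were set aside by symbol, 122 fell and 5 rose, with a median log2 change of -0.25. With the ranking on GMS alone, which left 169 genes, 109 fell and 6 rose, and the median was -0.23. Of the members, 154 were among the 200 most abundant genes of GMS and 27 were not. Of the 91 members of rank 1 to 100 in WT, 84 were of rank 1 to 100 in GMS.

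Among the 6 groups of rank 1 to 6400, the most abundant genes had the lowest median change whichever libraries ranked them. In the ranking over all 6 libraries, with no names set aside, the median log2 change was -0.24 for rank 1 to 200, -0.10 for rank 201 to 400 and -0.13 for rank 401 to 800. Lower ranks had medians of -0.05 (801 to 1600), 0.03 (1601 to 3200) and 0.10 (3201 to 6400). Ranked by WT or GMS alone, the medians for rank 1 to 200 were -0.25 and -0.21, each the lowest of its 6 groups. The share of genes that fell was 64.0% at rank 1 to 200 and 12.2% at rank 3201 to 6400, in the ranking over all 6 libraries. Genes past rank 6400 were not grouped, so no trend is stated for them. Over all 12029 genes tested the share was 18.6%. Without WT replicate 3 the medians ran from -0.32 to 0.06. The TMM scaling takes most genes as the reference, so these changes are relative to that of the other genes: with scaling to library totals alone the median over all genes moved from 0.05 to 0.15 and that over the members to -0.16, while the difference between members and all genes stayed at -0.31.

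**Figure D4:**
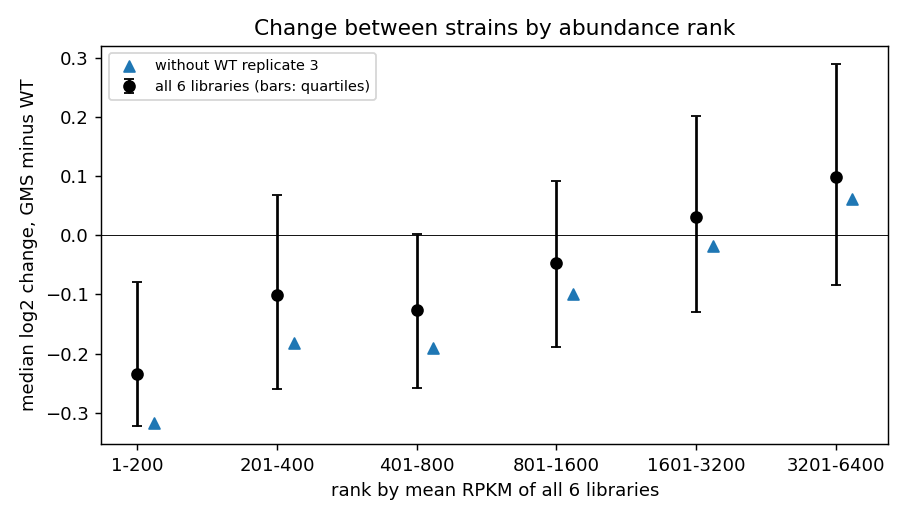
Median log2 change (GMS minus WT) by group of genes ranked by mean RPKM over all 6 libraries; black circles are medians with bars to the quartiles over genes, and blue triangles are medians without WT replicate 3. The circles run from -0.24 for rank 1 to 200 to 0.10 for rank 3201 to 6400, and every triangle lies below its circle. Genes past rank 6400 are not shown.

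WT replicate 3 had less of most members than the other WT libraries had. By RPKM, 159 of the 181 members had their lowest WT value in it and 11 their highest. The same count over all genes tested is not given here. Its median level over the members was 0.893 of the mean of WT replicates 1 and 2, beside 0.967 over all genes tested. On the log2 scale of RPKM relative to that mean, WT replicate 3 had a median of -0.16 and the GMS libraries -0.23, -0.27 and -0.26. The deposited RPKM divide by a read total of which a library-specific part was counted in genes. This part was 42.4% and 42.5% in WT replicates 1 and 2 and 40.2% in WT replicate 3. In GMS it was 40.7%, 40.1% and 40.7%. These RPKM ratios, and the one over all genes, therefore include that difference, and its part was not tested. The GMS libraries were close to each other, with a median coefficient of variation over the members of 2.33%, beside 6.77% in WT. Testis markers in WT replicate 3 summed to 32282 CPM and fat body markers to 376 CPM, both between the other WT libraries and GMS. Most of the testis sum was Tub4. Other marker lists differed. The muscle sum of WT replicate 3, 50.2 CPM, lay within the GMS range. Its haemocyte (88.9 CPM), epidermis (1273 CPM) and sheath (344 CPM) sums were the lowest of all 6 libraries. The part of any of these in the members' values was not tested.

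For a few members this 1 library decided the WT spread. LOC101744831 had 306, 322 and 69.0 RPKM in WT and 306, 221 and 302 RPKM in GMS. WT replicate 3 was the lowest of all 6 by far, and the other WT libraries were above every GMS library, WT replicate 1 only just (log2 change 0.20, standard error 0.48, edgeR adjusted p = 0.765; -0.28 and adjusted p = 0.0116 without it). LOC101735454 had 378, 385 and 247 RPKM in WT and 399, 324 and 406 RPKM in GMS. Here too WT replicate 3 was the lowest, and the other WT libraries lay within the GMS range (log2 change 0.10, standard error 0.16, edgeR adjusted p = 0.637; -0.11 and adjusted p = 0.121 without it). Both genes were named after their values were seen.

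**Figure D5:**
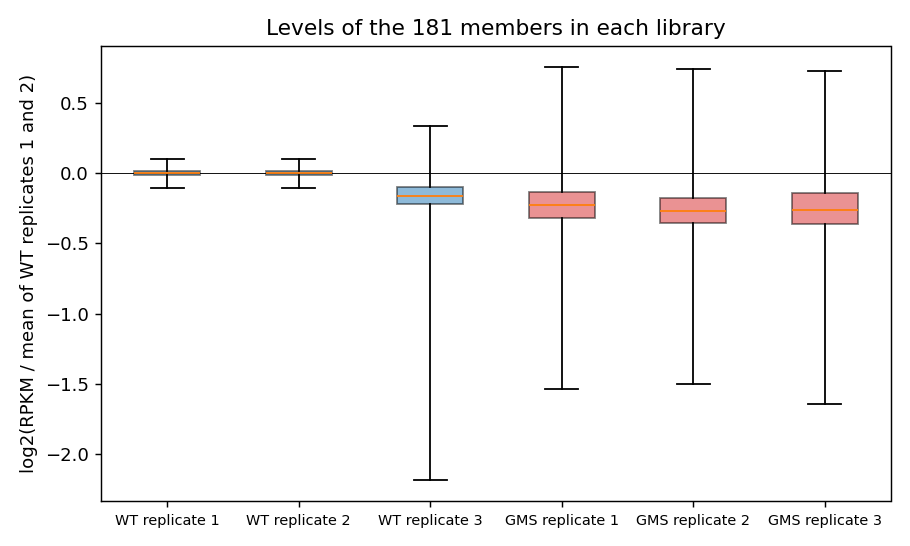
Log2 of RPKM relative to the mean of WT replicates 1 and 2 for the 181 members in each library; boxes span the quartiles, the line is the median and whiskers reach the lowest and highest member. WT replicates 1 and 2 are centred on 0 by construction, the median of WT replicate 3 is -0.16 and those of the GMS libraries lie between -0.27 and -0.23. The values include differences between libraries in the share of reads counted in genes.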

How the data were processed

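RNA of testis was sequenced in 6 libraries, 3 per strain. The authors deposited raw read counts per gene and RPKM values per library, per the file headers. Reads were aligned with HISAT2 2.1.0 and counted with featureCounts 1.6.2, per the submitters' processing notes. The build of the genome was not given in the sources used here, nor was its annotation. Counted reads ran from 19627477 to 28358501 per library. The deposited RPKM were scaled to 48248888 to 68701498 reads, of which 40.1 to 42.5% were counted in genes. Gene lengths were recovered from the ratio of counts to RPKM, and 100% of the recovered lengths were whole within 0.01 bases.

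Members were ranked on the deposited RPKM. For the strains, edgeR 4.0.16 (under R 4.3.3) tested the counts by quasi-likelihood, with TMM factors and without a block. The default expression filter kept 12029 of 15884 genes, all 181 members among them, and removed 3855. Standard errors were derived from the log2 change and the F statistic, and p-values were adjusted by Benjamini-Hochberg over all genes tested. A gene was called at an adjusted p under 0.05. Shares per library are described without a test, since WT levels chose the members. Alternatives used DESeq2 1.42.0, limma 3.58.1 on log2(RPKM + 1) or log2(RPKM + 0.1), other scalings and filters, other rankings, the replicate block and leaving out each library. The test was also run on simulated counts, and the outcome is not given here. No library was dropped or imputed except where a result says so.

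Genes named with values were the members with a symbol, the 15 most abundant, the 8 largest falls and up to 8 rises with an adjusted p under 0.05 and no overlap, and the 3 genes on each side of the edge. Names, biotypes and gene order came from RefSeq's table of ASM3026992v2, which gives 13030 of the counted genes a symbol. The members and gene lists were chosen with earlier results of these data known.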

Additional observations from a re-analysis of the deposited data

How the results depend on the processing

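Members that fell numbered 135 and members that rose 2, with a median log2 change of -0.26. The number that rose was 1 with DESeq2, with limma at a pseudocount of 0.1, with upper-quartile scaling, with the ranking on WT replicates 1 and 2 and with the replicate block. It was 8 with library totals, 5 with the ranking on all 6 libraries and with the top 400, 6 with the GMS ranking and with no drop by symbol, 0 with the top 100, and 1 to 3 when each library was left out. The number that fell was 57 with that limma fit, 72 with the top 100, 215 with the top 400, and 107 to 165 under the omissions, where 165 was without WT replicate 3. The median was -0.16 with library totals and -0.34 to -0.25 under the omissions.

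The replicate numbers were shared between strains, and the labels do not say whether they pair. Deviations of same-numbered libraries had correlations of 0.05, -0.17 and -0.17, and those of different-numbered libraries -0.13 to 0.20. With 3 libraries per strain these values cannot settle whether the libraries pair. With the replicate block 120 members fell and 1 rose, and the calls over all genes were 1450 higher and 1701 lower against 2115 and 2242. Over all genes, library totals gave 3264 higher and 1695 lower, and leaving out WT replicate 3 gave 3549 and 3555. The cause of these shifts was not tested.

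The share of counted reads in WT and GMS was 32.1% and 28.7% with the WT CPM ranking, 26.3% and 23.7% with the GMS ranking, 20.05% and 17.4% with the top 100, 36.6% and 33.0% with the top 400, and 33.3% and 29.3% with no drop, and 23.6% in GMS with the ranking on all 6 libraries. The share of summed RPKM was 31.6% and 28.1%, 33.1% and 30.0%, 26.2% and 22.96%, 43.5% and 39.6%, and 41.3% and 37.2% in the same order, and in GMS 30.2% with the ranking on all 6 libraries and 30.4% with that on WT replicates 1 and 2. Among the 47 named genes, 581 recomputed values kept their direction and call, 90 lost the call, 16 gained it and 18 changed sign, the last all of genes not called in the full set nor where the sign changed. With library totals the changed signs were Tctp (0.013), 14-3-3zeta (0.083) and tef2 (0.045), with upper-quartile scaling Pabp (-0.020) and Cypa (-0.052), and with DESeq2 Cypa (-0.022). With limma they were 14-3-3zeta (0.044 at a pseudocount of 0.1, 0.043 at 1 with and without the filter) and tef2 (0.0041 in each). Leaving out each library gave a log2 change of -0.013 to 0.106 for Mod(mdg4), -0.017 to 0.060 for Pabp, -0.132 to 0.032 for 14-3-3zeta and -0.067 to 0.039 for Cypa.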

Other observations

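15 genes were among the 200 most abundant of GMS, outside the names set aside by symbol, but not of WT. Of these, 4 rose in GMS by the edgeR test and the others did not pass. LOC101747075 had 119.6, 122 and 98.4 RPKM in WT and 278, 262 and 279 RPKM in GMS, a 2.32-fold higher level in GMS (log2 change 1.21, standard error 0.07, edgeR adjusted p = 2.07e-05). LOC101743180 had 82.1, 85.5 and 76.1 RPKM in WT and 191, 189 and 197 RPKM in GMS (2.28-fold higher, adjusted p = 2.47e-06), and its rank went from 593 in WT to 180 in GMS. LOC101736733 (1.53-fold) and LOC778457 (1.22-fold) rose less. In each of these 4 genes all GMS libraries were above all WT libraries. They were picked by a high GMS level, which is part of the same contrast. The table gives none of them a symbol beyond a number.

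LOC101738005, also in this group, had 55.0, 49.8 and 217 RPKM in WT and 187, 200.4 and 168 RPKM in GMS. WT replicate 3 lay with the GMS libraries and above the other WT libraries, and the change did not pass (adjusted p = 0.334; 1.88e-12 without WT replicate 3). LOC101741622 had 130.1, 116 and 209 RPKM in WT and 197, 192 and 188 RPKM in GMS, again with WT replicate 3 apart from the other WT libraries (adjusted p = 0.342; 1.91e-08 without WT replicate 3). The actin gene A3 had 187 ± 17.8 RPKM in WT and 184 ± 10.8 RPKM in GMS and did not pass (adjusted p = 0.407), but was called lower without WT replicate 3 (log2 change -0.18, adjusted p = 0.00371).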
